A study of Mus musculus with 23 samples.

Results

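The interleukin-1 family cytokines examined here are 5 genes, Il1a, Il1b, Il1rn, Il1f9 (also named Il36g) and Il18, taken by their symbols from 19938 genes measured in mouse macrophages exposed to fatty acids or lipopolysaccharide. Each gene was read from the probe set with that symbol alone that had the highest mean over the 23 arrays, and each of the 5 had exactly 1 such probe set. The probe sets were 10487588 for Il1a, 10487597 for Il1b, 10469816 for Il1rn, 10469786 for Il1f9 and 10585194 for Il18. The cells were macrophages derived from bone marrow of C57Bl/6 mice without engineered alleles (wild type), grown for 6 days with the growth factor M-CSF at 10 ng/mL and treated 1 to 3 days after its withdrawal. All groups shared this genotype and preparation. Vehicle was bovine serum albumin (BSA) at 125 µM for 5 h (n = 3). The labels name lipopolysaccharide (LPS), a bacterial cell wall product sensed by TLR4, as inflammatory positive control, used at 1 ng/mL for 5 h on 4 arrays. Both fatty acids, saturated stearic acid (SA) and monounsaturated oleic acid (OA) of equal chain length, were used at 250 µM, with 4 arrays at 5 h and 4 at 20 h per acid. The acids were carried on fatty-acid-free BSA at 2 molecules of acid to 1 of BSA. For vehicle and LPS the sample labels give 5 h and the series text gives 4 h. No 20 h vehicle is among the groups, so a comparison of 20 h cells with vehicle combines treatment and time.

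Interleukin-1 alpha and interleukin-1 beta, the products of Il1a and Il1b, are agonists of the same receptor and signal through the adaptor MyD88 to NF-κB. The product of Il1rn binds that receptor without activating it and so acts as its antagonist. Il1f9 encodes interleukin-36 gamma, an agonist of a related receptor that is best known from epithelia, and Il18 encodes interleukin-18, which induces interferon gamma in lymphocytes. Interleukin-1 beta and interleukin-18 are made as inactive precursors that caspase-1 cuts within inflammasomes, so transcript levels do not give the amount of mature cytokine. In macrophages, transcription of Il1b is a classical response to TLR ligands, and inflammasome activation is a separate step.

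Array medians lay between 3.98 and 4.12 on the log2 scale, and no pair of arrays held identical values. The arrays give no detection call in the values used, so the 95th percentile of 1015 olfactory receptor genes, between 3.51 and 3.58 by group, served as a rough mark of low signal. A mean below that mark is called low signal here. Differences that start or end there may be compressed by the low-signal end of the array. The labels describe the samples as replicate wells and the series design as biological replicates, so the spread behind each p-value is that of these samples and may be technical. Of 11 macrophage markers measured, 10 were above the mark in every group, and Cd163 was below it in each. Over all genes, 1 array lay farther from its group than others did, replicate 2 of 20 h SA, whose deviations from the group mean had an SD of 0.215 against 0.153 to 0.161 for the rest of the group. In bulk RNA, fewer cells making a transcript and less transcript per cell cannot be told apart.

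The promoters of the 3 members with the largest differences between the acids at 20 h are shown first, because Il1a and Il1f9 were higher with SA than with OA and Il1b was lower. Each is the 250 bases before a RefSeq transcription start in GRCm38.p6, read 5′ to 3′ on the strand of the gene. Il1a lies on the minus strand, its window being chr2:129309973-129310222. Il1b lies on the minus strand, at chr2:129371140-129371389. Il1f9 lies on the plus strand, at chr2:24186226-24186475. Capitals mark letters that matched a motif searched on both strands.
Il1a: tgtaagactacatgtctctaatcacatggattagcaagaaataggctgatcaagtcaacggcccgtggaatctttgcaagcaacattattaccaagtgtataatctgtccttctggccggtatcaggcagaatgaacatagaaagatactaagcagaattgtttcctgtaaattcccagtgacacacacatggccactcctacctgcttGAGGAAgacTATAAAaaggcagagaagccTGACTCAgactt
Il1b: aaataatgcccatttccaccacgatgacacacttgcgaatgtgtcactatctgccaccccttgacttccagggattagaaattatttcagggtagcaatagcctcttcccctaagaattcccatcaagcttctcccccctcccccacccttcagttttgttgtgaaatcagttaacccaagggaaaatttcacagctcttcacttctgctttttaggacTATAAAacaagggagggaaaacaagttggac
Il1f9: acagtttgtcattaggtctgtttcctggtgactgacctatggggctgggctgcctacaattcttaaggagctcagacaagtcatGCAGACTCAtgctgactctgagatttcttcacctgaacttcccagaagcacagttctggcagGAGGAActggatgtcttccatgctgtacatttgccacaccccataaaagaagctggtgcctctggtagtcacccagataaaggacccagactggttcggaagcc
The motifs were GGGNNTTCC and GGGNNTTTC for NF-κB, TGANTCA for AP-1, TTGCNNAA for C/EBP, GAGGAA for the PU.1 core, TGATGNAA for C/EBP-ATF, TGANNNNGC for NRF2 and TATAAA for the TATA box. TGANTCA and TGANNNNGC share their first letters, so a match of one can overlap a match of the other. The Il1a window held an AP-1 match at positions -12 to -6, a TATA match at -32 to -27 and a PU.1 core at -41 to -36, counted back from the start. In the Il1b window the capitals are a TATA match at -31 to -26. The Il1f9 window held a PU.1 core at -104 to -99 and, on the other strand, an NRF2 match at -166 to -158. Among 32851 promoter windows of the same length, 6.75% held the AP-1 letters, 23.3% the PU.1 core, 35.2% the NRF2 letters, 12.4% the TATA letters and 9.56% the C/EBP letters. The C/EBP-ATF letters were in 3.45% of windows, GGGNNTTCC in 4.98% and GGGNNTTTC in 3.72%. Il1rn, also on chromosome 2, had 3 listed starts, with an AP-1 match at -141 to -135 in one window and a GGGNNTTTC match at -51 to -43 in another. Il18 lies on chromosome 9 with 1 listed start, and its window held a TATA match on the other strand at -175 to -170. These are matches of letters, and binding of the factors was not measured.

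LPS raised all 5 transcripts. Between the acids at 20 h, Il1f9 and Il1a were higher with SA while Il1b, Il18 and Il1rn were lower with SA, and all 5 differences passed the test at an adjusted p under 0.05 (limma, Benjamini-Hochberg over 19938 genes). That comparison called 16.7% of all genes. At 5 h, Il1f9 and Il1a were higher with SA than with OA and the other 3 members did not pass, where 5.67% of all genes were called. Against vehicle at 5 h, SA lowered Il1b and the other 4 members did not pass (3.33% of all genes called). With OA at 5 h no member passed, and only 14 of all genes did, which is 0.0702%, or 1128 at an unadjusted p under 0.05. LPS against vehicle called 22.4% of all genes. The members' median log2 difference was 2.47 for LPS against vehicle, beside -0.02 over all genes, and -0.38 for SA against OA at 20 h, beside 0.03. All comparisons with vehicle share the same 3 vehicle arrays.

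**Figure D1:**
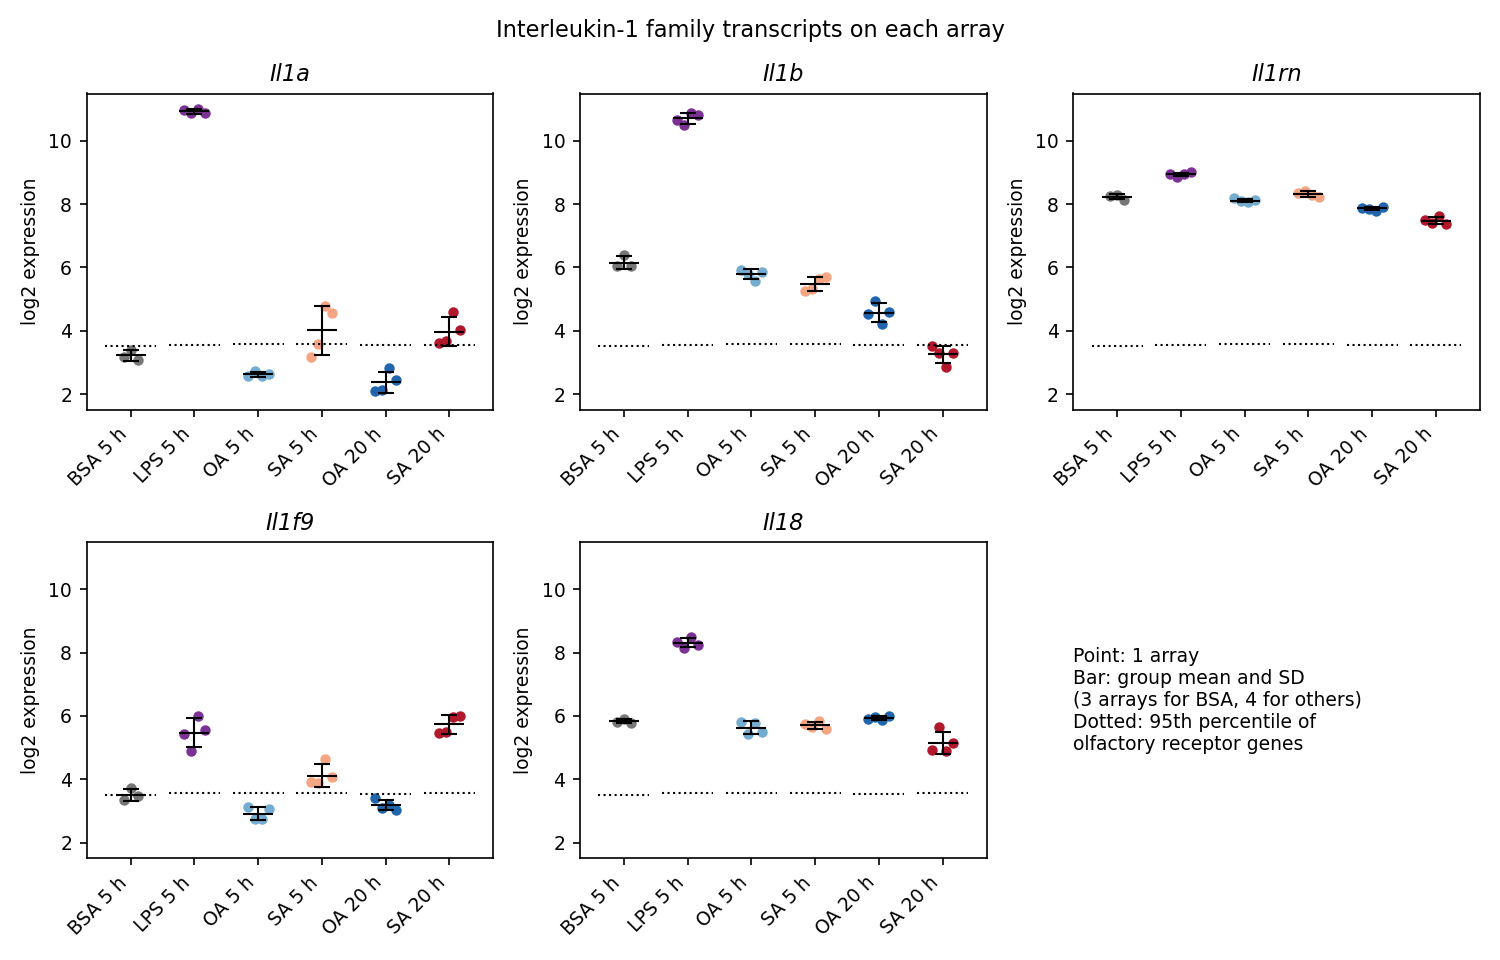
Log2 expression (y axis) of the 5 members on each array, by treatment and time (x axis). Points are arrays, bars are group means and SD, and dotted lines are the 95th percentile of olfactory receptor genes in each group. LPS arrays are the highest for 4 members, whereas for Il1f9 the 20 h SA arrays reach the LPS level.

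Il1a, which encodes an agonist that is active as a precursor and is often released from damaged cells, had the largest response to LPS among the members. Vehicle arrays read 3.16, 3.41 and 3.09 on the log2 scale, and LPS arrays read 10.98, 10.88, 11.00 and 10.88. The difference was 7.71 ± 0.27 (log2, SE; adjusted p = 7.79e-17), or 209.9-fold, from a vehicle mean of 3.22 ± 0.17 (SD, n = 3) that was low signal. All LPS arrays thus lay far above all others.

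With OA, Il1a remained at low signal throughout. The 5 h OA arrays read 2.57, 2.73, 2.57 and 2.64, and the 20 h OA arrays read 2.10, 2.14, 2.82 and 2.44. The 5 h SA arrays read 3.16, 3.59, 4.77 and 4.55, and the 20 h SA arrays 3.61, 3.67, 4.60 and 4.02. Within 5 h SA the arrays spread widely, with replicates 1 and 2 near the mark of low signal and replicates 3 and 4 clearly above it. Every SA array was above every OA array of the same time. SA exceeded OA by 1.39 ± 0.25 at 5 h (log2, SE; 2.62-fold; adjusted p = 0.000686) and by 1.60 ± 0.25 at 20 h (3.03-fold; adjusted p = 3.47e-05). From 5 h to 20 h this difference changed by 0.21 ± 0.36, with a 95% interval of -0.53 to 0.94 (adjusted p = 0.884), so neither growth nor shrinkage was resolved.

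Against vehicle the Il1a values with SA were not separated at 5 h. The difference of SA from vehicle was 0.80 ± 0.27 (adjusted p = 0.132), and SA replicate 1 lay within the vehicle range. Without that array the difference was 1.08 and passed (adjusted p = 0.0116), and with array weights it was 0.91 and passed (adjusted p = 0.0438). OA at 5 h was 0.59 ± 0.27 below vehicle, and its arrays were all lower, but the difference did not pass (adjusted p = 0.852). In order of level, LPS was followed by 5 h SA, 20 h SA, vehicle, 5 h OA and 20 h OA, and only the step from LPS to 5 h SA passed. The step from 20 h SA to vehicle was 0.76 (adjusted p = 0.0627).

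Il1b, the gene of the agonist that caspase-1 matures, showed the opposite order of the acids. Vehicle arrays read 6.04, 6.39 and 6.04, and LPS arrays read 10.65, 10.51, 10.88 and 10.81. LPS raised Il1b by 4.56 ± 0.16 (log2, SE; 23.5-fold; adjusted p = 7.79e-17). All 4 LPS arrays were above every other array.

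The acid-treated arrays lay below vehicle for Il1b, and lower at 20 h than at 5 h. At 5 h OA arrays read 5.94, 5.80, 5.59 and 5.87, and SA arrays 5.25, 5.33, 5.62 and 5.70. At 20 h OA arrays read 4.54, 4.95, 4.22 and 4.59, and SA arrays 3.52, 3.31, 2.87 and 3.31. The 20 h SA mean of 3.25 ± 0.27 (SD, n = 4) was low signal, the only group in which Il1b was. SA was below OA by 1.33 at 20 h (log2 difference -1.33 ± 0.15, 2.51-fold lower; adjusted p = 2.27e-07) with no overlap of arrays. At 5 h the arrays overlapped and the difference of -0.32 ± 0.15, with a 95% interval of -0.63 to -0.02, did not pass (adjusted p = 0.269). The difference between the acids changed by -1.0 ± 0.21 from 5 h to 20 h (adjusted p = 0.00318).

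From 5 h to 20 h Il1b fell in both acids. The change was -2.22 ± 0.15 with SA (4.67-fold lower; adjusted p = 4.60e-11) and -1.22 ± 0.15 with OA (2.33-fold lower; adjusted p = 6.01e-06), and neither pair of groups overlapped. Against vehicle, 5 h SA lowered Il1b by -0.68 ± 0.16 (1.60-fold lower; adjusted p = 0.0152). That call was lost without vehicle replicate 2 (-0.56, adjusted p = 0.137), SA replicate 1 (-0.61, adjusted p = 0.0561) or SA replicate 2 (-0.63, adjusted p = 0.05). OA at 5 h differed from vehicle by -0.36 ± 0.16 and did not pass (adjusted p = 0.835), although its arrays did not overlap those of vehicle. The order of levels was LPS, vehicle, 5 h OA, 5 h SA, 20 h OA and 20 h SA. The steps from vehicle to 5 h OA and from 5 h OA to 5 h SA did not pass, and the other 3 did, including 0.90 from 5 h SA to 20 h OA (adjusted p = 0.00011).

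Il1rn, which encodes the receptor antagonist, moved over a narrow range. Vehicle arrays read 8.26, 8.29 and 8.15, and LPS arrays read 8.94, 8.87, 8.94 and 9.01. LPS raised it by 0.71 ± 0.08 (log2, SE; 1.64-fold; adjusted p = 1.63e-07). With arrays of a group within 0.11 (SD) of each other, differences of this size did not overlap.

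Il1rn was lowest after 20 h of SA. At 5 h OA arrays read 8.18, 8.10, 8.06 and 8.13, and SA arrays 8.35, 8.42, 8.29 and 8.22. At 20 h OA arrays read 7.88, 7.86, 7.80 and 7.93, and SA arrays 7.51, 7.42, 7.62 and 7.38. The 20 h SA arrays were the lowest of all 23. SA was lower than OA at 20 h by -0.38 ± 0.07 (1.31-fold lower; adjusted p = 0.000414). At 5 h every SA array was above every OA array, but the difference of 0.20 ± 0.07 did not pass (adjusted p = 0.131). The change of the difference between the times was -0.59 ± 0.10 (adjusted p = 0.000612).

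Over time Il1rn fell with SA by -0.84 ± 0.07 (1.79-fold lower; adjusted p = 7.56e-09). With OA it changed by -0.25 ± 0.07, which did not pass (adjusted p = 0.0538), although the arrays did not overlap. That value lies close to the threshold, and 4 alternative settings put it on the other side, with adjusted p between 0.0128 and 0.0477. Against vehicle at 5 h the difference was 0.09 ± 0.08 with SA (adjusted p = 0.732) and -0.11 ± 0.08 with OA (adjusted p = 0.94). The order of levels was LPS, 5 h SA, vehicle, 5 h OA, 20 h OA and 20 h SA, and the first and last steps passed.

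Il1f9 was the only member that was higher at 20 h with SA than in any other group by its mean. Vehicle arrays read 3.33, 3.72 and 3.47, at the mark of low signal, and LPS arrays read 5.44, 4.88, 6.01 and 5.56. The LPS difference was 1.97 ± 0.21 (log2, SE; 3.91-fold; adjusted p = 4.90e-08). No LPS array came down to the vehicle range.

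Il1f9 was at low signal with OA and above it with SA. At 5 h OA arrays read 3.11, 2.76, 2.73 and 3.07, and SA arrays 3.91, 3.87, 4.64 and 4.06. At 20 h OA arrays read 3.40, 3.09, 3.19 and 3.03, and SA arrays 5.46, 5.51, 5.97 and 6.00. All SA arrays lay above all OA and vehicle arrays. SA exceeded OA by 1.20 ± 0.19 at 5 h (2.30-fold; adjusted p = 0.000151) and by 2.56 ± 0.19 at 20 h (5.88-fold; adjusted p = 2.41e-10). The difference grew by 1.35 ± 0.27 between the times (adjusted p = 0.00199). That growth came with a rise in SA of 1.62 ± 0.19 from 5 h to 20 h (3.07-fold; adjusted p = 8.20e-07), while OA changed by 0.26 ± 0.19 (adjusted p = 0.564).

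At 5 h the SA arrays of Il1f9 did not overlap vehicle, but the difference of 0.61 ± 0.21 did not pass (adjusted p = 0.128). OA was 0.59 ± 0.21 below vehicle, also without overlap and without passing (adjusted p = 0.712). The 20 h SA mean of 5.74 ± 0.29 (SD, n = 4) and the LPS mean of 5.47 ± 0.46 (SD, n = 4) differed by 0.26, with a 95% interval of -0.13 to 0.66 (adjusted p = 0.365), and their arrays overlapped. Durations differ between those groups. In order, 20 h SA, LPS, 5 h SA, vehicle, 20 h OA and 5 h OA followed each other, and only the step of 1.35 from LPS to 5 h SA passed (adjusted p = 4.93e-06).

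Il18, the other cytokine gene whose product caspase-1 matures, was well above the mark of low signal in every group. Vehicle arrays read 5.81, 5.92 and 5.79, and LPS arrays read 8.35, 8.16, 8.49 and 8.24. LPS raised it by 2.47 ± 0.14 (log2, SE; 5.55-fold; adjusted p = 4.06e-13). The LPS arrays were separate from all others.

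At 5 h neither acid separated Il18 from vehicle. The 5 h OA arrays read 5.81, 5.42, 5.79 and 5.50, and the 5 h SA arrays read 5.74, 5.64, 5.83 and 5.60. The difference between the acids was 0.07 ± 0.13, with a 95% interval of -0.19 to 0.34 (adjusted p = 0.858), and the arrays overlapped. Against vehicle the difference was -0.13 ± 0.14 with SA (adjusted p = 0.766) and -0.21 ± 0.14 with OA (adjusted p = 0.94).

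By 20 h the acids had parted. The 20 h OA arrays read 5.89, 5.98, 5.89 and 6.01, and the 20 h SA arrays read 4.92, 5.64, 4.88 and 5.15. The array at 5.64 is replicate 2, the one that stood apart over all genes. SA was lower than OA by -0.79 ± 0.13 (1.73-fold lower; adjusted p = 4.41e-05), and by -0.96 without replicate 2 (adjusted p = 3.09e-07). The difference between the acids changed by -0.87 ± 0.18 with time (adjusted p = 0.00284), and by -1.03 without that array. With SA, Il18 fell by -0.56 ± 0.13 from 5 h to 20 h (1.47-fold lower; adjusted p = 0.00321), with replicate 2 overlapping the 5 h range, and by -0.72 without it. With OA it changed by 0.31 ± 0.13, which did not pass (adjusted p = 0.204). In order, LPS was followed by 20 h OA, vehicle, 5 h SA, 5 h OA and 20 h SA. The first step, 2.37 (adjusted p = 1.14e-13), and the last, 0.48 (adjusted p = 0.00753, with overlapping arrays), passed.

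Set side by side at matched dose and time, the saturated and the monounsaturated acid differed in 2 members at 5 h and in 5 at 20 h. The change of that difference with time passed for Il1b, Il1rn, Il1f9 and Il18 and not for Il1a (4.98% of all genes passed that test). Without replicate 2 of 20 h SA the 20 h differences were 1.70 for Il1a, -1.35 for Il1b, -0.36 for Il1rn and 2.63 for Il1f9, all still past the threshold. From 5 h to 20 h, 12.8% of all genes were called with SA, where 1 member rose and 3 fell, and 4.38% with OA, where 1 fell. Without a 20 h vehicle, longer culture and longer exposure to the acid cannot be told apart in these. Set against the 5 h vehicle, 20 h SA was lower in Il1b by -2.91 ± 0.16 (adjusted p = 1.45e-12), in Il1rn by -0.75 ± 0.08 (adjusted p = 1.19e-07) and in Il18 by -0.69 ± 0.14 (adjusted p = 0.000631). It was higher in Il1f9 by 2.23 ± 0.21 (4.69-fold; adjusted p = 1.19e-08), where 15.9% of all genes were called. The same comparison with 20 h OA gave -1.58 ± 0.16 for Il1b (adjusted p = 2.85e-07) and -0.37 ± 0.08 for Il1rn (adjusted p = 0.00528), and the other 3 members did not pass (4.70% of all genes called). These last 2 sets of differences combine treatment with time.

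**Figure D2:**
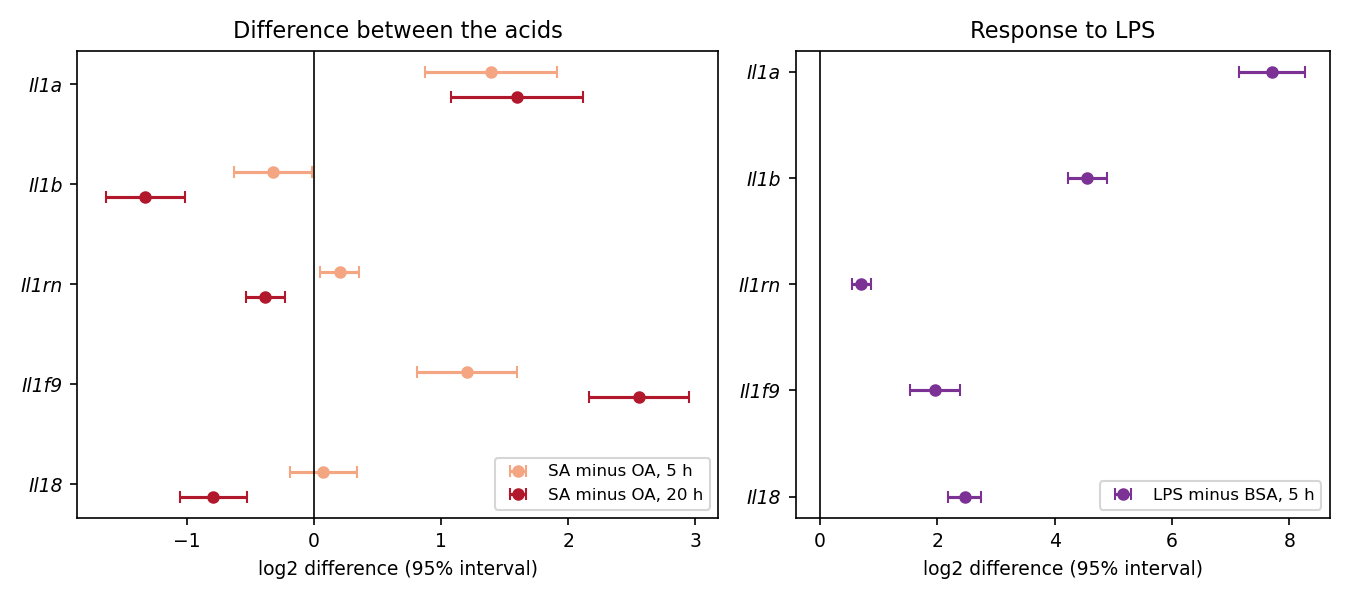
Log2 differences with 95% intervals (x axis) for each member (y axis): SA minus OA at 5 h and at 20 h on the left, LPS minus vehicle on the right. At 20 h no interval between the acids includes 0, with Il1a and Il1f9 above it and Il1b, Il1rn and Il18 below it, and all 5 LPS intervals lie above 0.

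Compared with LPS, which the sample labels also place at 5 h, 5 h SA was lower in all 5 members, where 22.1% of all genes were called. The difference was -6.91 ± 0.25 for Il1a (adjusted p = 1.37e-16), -5.24 ± 0.15 for Il1b (adjusted p = 1.76e-18) and -2.61 ± 0.13 for Il18 (adjusted p = 3.17e-14). It was -1.35 ± 0.19 for Il1f9 (adjusted p = 4.93e-06) and -0.62 ± 0.07 for Il1rn (adjusted p = 3.81e-07). No 5 h SA array reached the LPS range in any member.

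Transcripts of the agonist gene Il1b and the antagonist gene Il1rn changed unequally, which the log2 difference of Il1rn and Il1b on each array shows. The offset between these probe sets has no meaning as a ratio of molecules, so only its shift between groups is read, with no test. Vehicle arrays gave 2.22, 1.90 and 2.11, and LPS arrays -1.70, -1.64, -1.94 and -1.80. LPS therefore shifted the difference by -3.85 from the vehicle mean, since Il1b rose far more than Il1rn. The 5 h OA arrays gave 2.25, 2.30, 2.47 and 2.26, and the 5 h SA arrays 3.10, 3.09, 2.66 and 2.52. The 20 h OA arrays gave 3.34, 2.91, 3.57 and 3.34, and the 20 h SA arrays 3.99, 4.11, 4.75 and 4.07. The shift from vehicle was thus opposite to that of LPS in each acid group, at 0.24 for 5 h OA, 0.77 for 5 h SA, 1.21 for 20 h OA and 2.15 for 20 h SA. The last value rests on Il1b at low signal, so its size is uncertain. The 5 h OA arrays were above all vehicle arrays only narrowly, and the 20 h SA arrays were above every other array. Il1a, the other agonist gene, is not part of this measure. Its difference from the 5 h vehicle was 0.80 with 5 h SA and 0.76 with 20 h SA, opposite in sign to Il1b. With OA it was -0.59 at 5 h and -0.84 at 20 h, the same sign as Il1b. None of these Il1a differences passed, and the Il1a means of vehicle and OA were low signal.

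**Figure D3:**
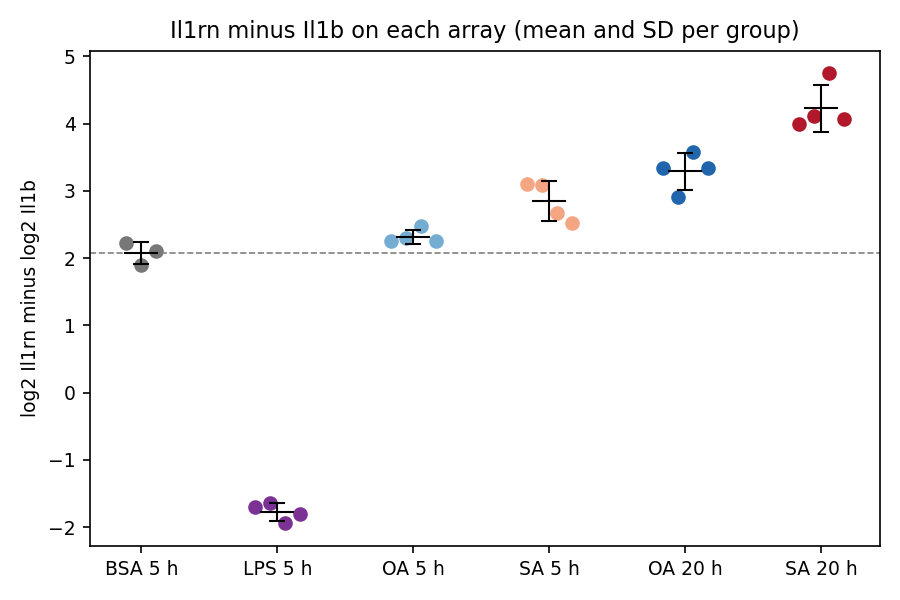
Log2 Il1rn minus log2 Il1b (y axis) on each array by group (x axis), with points for arrays, bars for the mean and SD, and a dashed line at the vehicle mean of 2.08. LPS arrays lie between -1.94 and -1.64, and 20 h SA arrays lie between 3.99 and 4.75.

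The remaining ligands of the family, Il33, Il1f5, Il1f6, Il1f8 and Il1f10, had group means between 1.78 and 2.81, below the mark of low signal in every group. None of the 5 passed in SA against OA at 20 h (16.7% of all genes called) or 5 h (5.67%), or in LPS against vehicle (22.4%). Il1f6 passed in SA against LPS at 5 h (-0.49 ± 0.16, adjusted p = 0.0233). That is 20% of the list beside 22.1% of all genes. Of 11 receptor and decoy genes 9 were measured, and Il1r1 and Il1rl1 were not analysed here. Above the mark in every group were 3 of the 9, namely Il1rap, Sigirr and Il18bp. Il1rap encodes the accessory chain of the interleukin-1 receptor, Sigirr an inhibitory receptor and Il18bp the soluble decoy that binds interleukin-18. At 20 h, Il18bp with SA exceeded its level with OA by 0.32 ± 0.08 (adjusted p = 0.00504), while Il18 itself was lower. Il18bp was the only 1 of the 9 called there, or 11.1% of the measured list beside 16.7% of all genes. LPS raised Il18bp by 0.98 ± 0.09 (adjusted p = 2.66e-09) and Il1rap by 0.74 ± 0.13 (adjusted p = 0.000109), and no other receptor or decoy passed in LPS against vehicle, so that 22.2% of the measured list was called beside 22.4% of all genes.

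The 18 genes of cytokine processing and release were all measured and above the mark of low signal. At 20 h, 2 were higher and 9 lower with SA than with OA, which is 61.1% of the list beside 16.7% of all genes. The median log2 difference was -0.24 beside 0.03 over all genes. Nlrp1b, an inflammasome sensor, was lower by -1.54 ± 0.11 (adjusted p = 9.62e-11). Nlrp1a, its paralog, was lower by -0.73 ± 0.10 (adjusted p = 2.62e-06), and Nlrc4, which forms an inflammasome upon sensing of bacterial flagellin, was lower by -0.69 ± 0.14 (adjusted p = 0.000582). Because these paralogs are near-identical in parts, the probe sets of Nlrp1a and Nlrp1b may not read them separately.

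At 5 h, 3 processing genes were higher and 3 lower with SA than with OA, or 33.3% of the list beside 5.67% of all genes. Casp4, which encodes the caspase that senses LPS in the cytosol, was higher by 0.90 ± 0.09 (adjusted p = 1.35e-07). Nlrp3, the inflammasome sensor that responds to many danger signals and is itself induced by TLR ligands, was higher by 0.84 ± 0.09 (adjusted p = 2.41e-07). Nlrp1b was lower by -0.57 ± 0.11 (adjusted p = 0.00128). Against vehicle at 5 h, SA called 2 of the 18 higher and 2 lower, or 22.2% of the list beside 3.33% of all genes. SA raised Nlrp3 by 0.66 ± 0.09 (adjusted p = 5.58e-05) and Casp4 by 0.59 ± 0.10 (adjusted p = 0.000308). It lowered Nlrp1a by -0.43 ± 0.10 (adjusted p = 0.0163), and Il1b in the same comparison fell. OA against vehicle called none of the 18 (0.0702% of all genes). LPS called 7 higher and 5 lower, or 66.7% of the list beside 22.4% of all genes, led by Nlrp3 at 2.66 ± 0.09 (adjusted p = 6.02e-17). Nlrp3 means ran from 9.51 with LPS and 7.50 with 5 h SA to 6.85 in vehicle, 6.66 with 5 h OA, 5.47 with 20 h OA and 5.16 with 20 h SA. From 5 h to 20 h Nlrp3 fell by -2.34 ± 0.09 with SA (adjusted p = 1.08e-15) and by -1.19 ± 0.09 with OA (adjusted p = 9.85e-10), so it fell with time in both acids, as Il1b did.

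Of 19 genes of receptor signalling, 18 were measured, and all 18 were above the mark. At 5 h, 5 were higher and none lower with SA than with OA, or 27.8% of the list beside 5.67% of all genes. The median was 0.26 beside 0.01 over all genes. Peli1, a ubiquitin ligase of the pathway, was higher by 0.94 ± 0.09 (adjusted p = 6.88e-08). Tnfaip3 was higher by 0.81 ± 0.08 (adjusted p = 1.59e-07) and Nfkbia by 0.65 ± 0.09 (adjusted p = 5.59e-05). Tnfaip3 and Nfkbia encode inhibitors of NF-κB signalling that are themselves targets of NF-κB. At 20 h, 4 were higher and 1 lower with SA than with OA (27.8% beside 16.7% of all genes), with Tnfaip3 at 0.74 ± 0.08 (adjusted p = 1.69e-07) and Peli1 at 0.66 ± 0.09 (adjusted p = 4.01e-06). LPS called 9 higher and 4 lower (72.2% beside 22.4% of all genes), with Peli1 at 2.32 ± 0.10 (adjusted p = 1.28e-15). From 5 h to 20 h, 7 fell and 1 rose with SA (44.4% beside 12.8% of all genes), and 5 fell with OA (27.8% beside 4.38%). Nfkbia fell by -1.50 ± 0.09 with SA (adjusted p = 1.89e-11) and by -1.06 ± 0.09 with OA (adjusted p = 5.10e-08). Nfkbiz, a nuclear cofactor of NF-κB, was the 1 gene of the list whose acid difference changed with time, by -0.94 ± 0.13 (adjusted p = 1.54e-05).

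**Figure D4:**
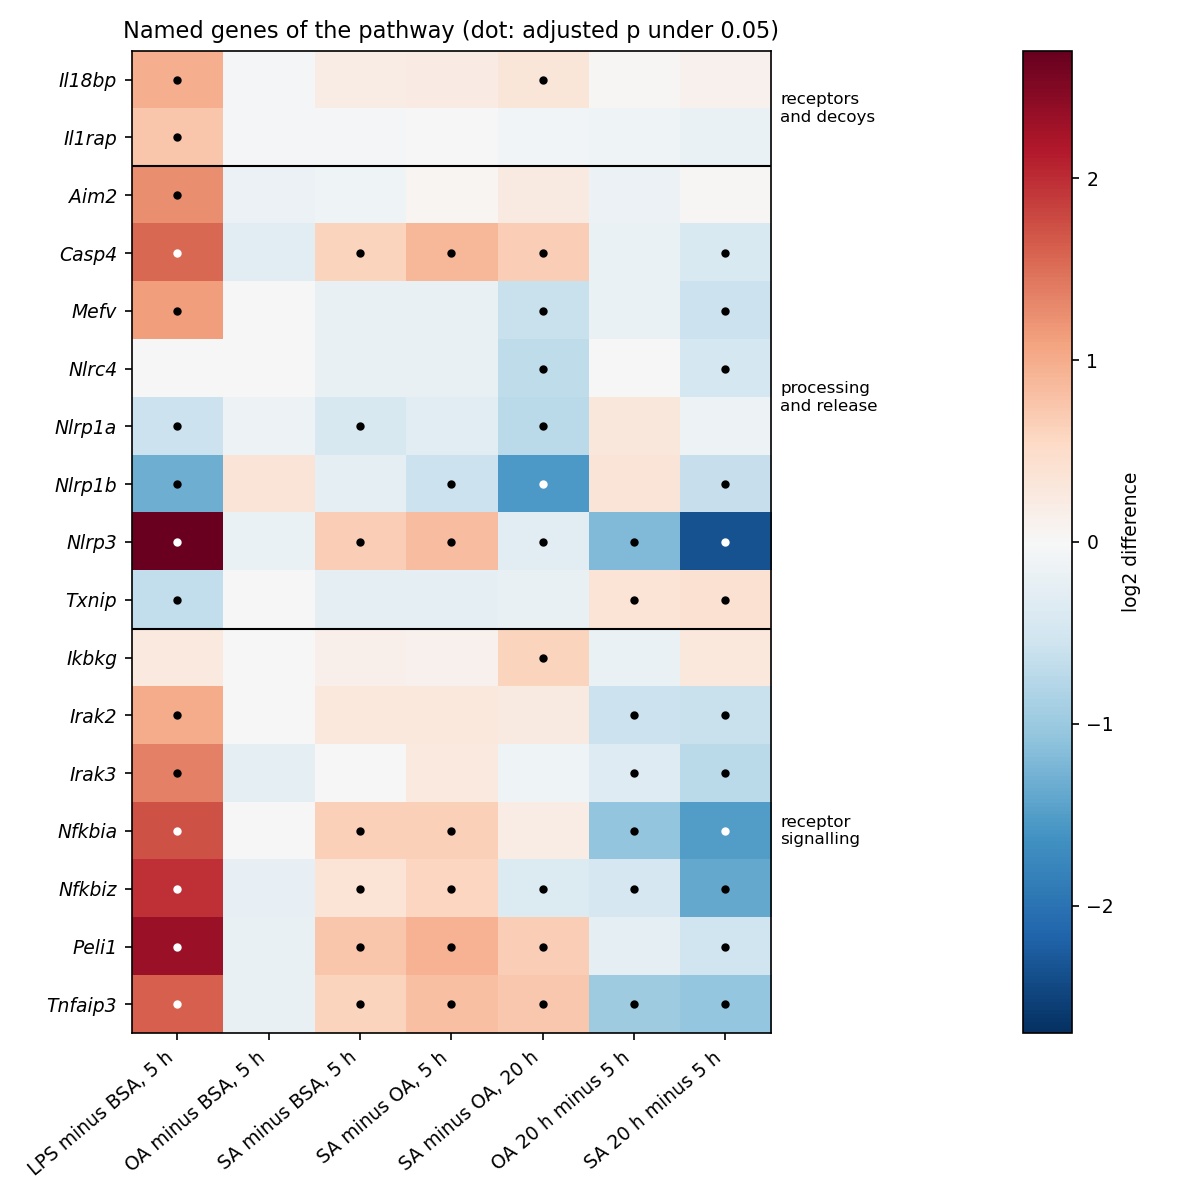
Log2 differences (colour) of the 17 named receptor, processing and signalling genes (rows) in 7 comparisons (columns), with a dot where the adjusted p was under 0.05. At 5 h, SA exceeds OA in Nlrp3, Casp4, Peli1 and Tnfaip3, and Nlrp3 and Nfkbia fall from 5 h to 20 h in both acids.

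Macrophage markers moved with the acid difference at 20 h. Of 11 measured, 9 were lower with SA than with OA and none higher, or 81.8% beside 16.7% of all genes, and the mean over the list was 8.25 to 8.37 on 20 h SA arrays against 9.12 to 9.21 on 20 h OA arrays. At 5 h, 3 of 11 were lower (27.3% beside 5.67%). LPS against vehicle called 2 of them higher and 3 lower (45.5% beside 22.4% of all genes). From 5 h to 20 h with SA, 7 fell and 1 rose, with a median of -0.45 (72.7% called beside 12.8% of all genes). With OA over the same time 1 fell and 5 rose, with a median of 0.02 (54.5% beside 4.38%). The part of these markers in the lower Il1b, Il18 and Il1rn of 20 h SA, against OA or against 5 h, was not tested. Of 14 neutrophil markers measured, 11 lay above the mark with 5 h SA and 12 in each other group, among them S100a8 with group means of 11.20 to 11.53, S100a9 with 10.72 to 11.16 and Ngp with 7.50 to 8.41. Ly6g, another of them, was low signal, at 2.58 to 3.25. Between the acids 1 of the 14 was lower with SA at 20 h (7.14% beside 16.7% of all genes). None passed at 5 h, where 5.67% of all genes did. List means were 5.95 to 6.21 on 20 h SA arrays and 6.12 to 6.25 on 20 h OA arrays. From 5 h to 20 h, 7 of the 14 rose with SA (50.0% beside 12.8% of all genes) and 3 with OA (21.4% beside 4.38%), with medians of 0.28 and 0.27. The list means had been 5.41 to 5.81 on 5 h SA arrays and 5.77 to 5.99 on 5 h OA arrays. Il1f9 rose with SA over that time and did not pass with OA, and the part of neutrophil markers in its level was not tested. Of 12 dendritic cell markers none differed between the acids at either time. Over all genes, 16.7% were called between the acids at 20 h and 5.67% at 5 h. For 12 lymphocyte markers, 1 was lower at 20 h (8.33% beside 16.7% of all genes) and 2 at 5 h (16.7% beside 5.67%). For 9 mast cell and basophil markers none differed between the acids, and LPS raised 2 (22.2% of the list, beside 22.4% of all genes). For 13 stromal and epithelial markers 1 was lower at 20 h (7.69% beside 16.7% of all genes), and of 4 erythroid markers none differed.

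Genes whose log2 values tracked each member most closely over the 23 arrays were sought among the 1884 genes whose group means ranged over at least 1 log2 unit. These correlations describe arrays that share groups, and LPS arrays carry much of them for some members, so Pearson's r is also given for the 19 arrays without LPS. For Il1a the closest were Zbp1 (r = 0.990, and 0.822 without LPS), Il15ra (0.989 and 0.820) and Naa25 (0.989 and 0.820). For Il1b they were AI504432 (0.986 and 0.957), Ccl22 (0.981 and 0.894) and Dram1 (0.981 and 0.909). For Il1rn they were Cers6 (0.978 and 0.946), Myo10 (0.976 and 0.939) and Jag1 (0.972 and 0.936). Those of Il1f9, being chosen by likeness to it, share its pattern of a level with 20 h SA that reaches or passes that with LPS. They were Procr (0.955 and 0.956), Csf1 (0.954 and 0.944) and Wars (0.947 and 0.931). Csf1, which encodes M-CSF, had means of 4.89 with 20 h OA, 7.74 with LPS and 7.79 with 20 h SA. For Il18 the closest were Gm8995 (0.981 and 0.732), Sp100 (0.981 and 0.729) and Fam102b (0.978 and 0.714). For Il1a and Il18 the likeness was thus weaker once LPS was left out, and for Il1f9 it was nearly the same.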

How the data were processed

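RNA of 23 macrophage cultures in 6 groups was measured on single-channel arrays after amplification and biotin labelling of about 10 ng per sample, per the labels. Values were deposited as log2 expression, 1 per probe set and array, made with RMA per the submitters' processing notes, which brings arrays to a common distribution and can compress differences at low signal. The notes also name limma. Versions, the role of limma and the build are not given in the sources used here. Of 35556 probe sets, 21789 carry 1 symbol, which gave 19938 genes, with the probe set of highest mean kept for each of the 999 genes that had several. Values ran from 0.380 to 12.9.

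Each group's mean was fitted to all genes in R 4.3.3 by limma 3.58.1 with moderated variances (eBayes), and two-sided p-values were adjusted by Benjamini-Hochberg over all genes. A gene was called at an adjusted p under 0.05. The number of arrays, 3 or 4 per group, limits the precision. Promoter sequences are RefSeq's, matched by symbol for 5 of 5 members. The genes named are the members, the 3 called genes of largest change per pathway list and comparison, the 3 genes most correlated with each member, and genes of marker lists at their counts. Cd163, S100a8, S100a9, Ngp, Ly6g and Csf1 levels were named after their values were seen. Members, lists and comparisons were chosen with earlier results of these data known. Alternatives were the variance model, scaling, array weights, a filter on dim genes, the choice of probe sets, the arrays in the fit, the replicate number as a block, and the omission of single arrays. Python 3.11.15 with matplotlib 3.10.9 drew the figures.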

Additional observations from a re-analysis of the deposited data

Results flagged for a closer look

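The difference between SA and OA changed from 5 h to 20 h in 4 of the 5 members, by an interaction contrast in limma with p-values adjusted over all genes. The same contrast called 4.98% of all genes. The difference changed by -1.0 on the log2 scale for Il1b (adjusted p = 0.00318) and by -0.59 for Il1rn (adjusted p = 0.000612). For Il1f9 it changed by 1.35 (adjusted p = 0.00199) and for Il18 by -0.87 (adjusted p = 0.00284). The Il1b value includes a 20 h SA mean at low signal. The Il1f9 value includes OA means at low signal, so the sizes of both are uncertain. All 4 SA arrays lay on the stated side of all 4 OA arrays at 20 h in each of these members. No array stood apart from its group in the 25 member-by-group sets of 4 arrays tested for it.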

How the results depend on the processing

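Over 9 comparisons and 5 members, 776 of 790 alternative values kept their direction and their side of the threshold. Each member had 1 probe set, so the choice of probe sets left its difference unchanged. The variance model, the filter on dim genes and a fit of only the compared groups left it unchanged too. In those settings only the side of the threshold could change. Il1a in 5 h SA against vehicle became a call with array weights (0.91) and, among values of 0.55 to 1.08 with 1 array left out, without 5 h SA replicate 1. Il1a in 20 h SA against 5 h SA ranged from -0.33 to 0.21 with 1 array left out, turning positive without 5 h SA replicate 3 (0.21) or 4 (0.13) and without 20 h SA replicate 1 (0.08) or 2 (0.06). Its change of the acid difference with time ranged from -0.08 to 0.46, negative only without 5 h SA replicate 1. None of these Il1a values passed, apart from the 2 calls named first. Il1b in 5 h SA against vehicle ranged from -0.76 to -0.56 and was not called without vehicle replicate 2, 5 h SA replicate 1 or 5 h SA replicate 2. Il1rn in 20 h OA against 5 h OA stayed at -0.25 and became a call with an intensity trend and robust moderation (adjusted p = 0.0128), array weights (0.0391), the dimmest 25% of genes left out (0.0306) or all probe sets tested (0.0477). With only the compared groups fitted, the calls between the acids at 5 h numbered 660 rather than 1131, with 373 rather than 664 for SA against vehicle, and 7 rather than 14 for OA against vehicle. OA against vehicle gave 29 with the trend and 7 to 16 with 1 array left out, the lowest being without vehicle replicate 3 and 9 being without vehicle replicate 2. SA against vehicle gave 389 to 580, the lowest without vehicle replicate 2. The causes were not tested. The order of group means of every member was the same under both other scalings.

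With the replicate number as a block no member's call changed. For SA against OA at 20 h the block gave 1.60 for Il1a, -1.33 for Il1b, -0.38 for Il1rn, 2.56 for Il1f9 and -0.79 for Il18, with 3313 rather than 3324 genes called. Deviations of same-numbered samples correlated between -0.12 and 0.20 (median 0.02 over 55 pairs), with 9 of 23 arrays closest to their own number. Those of differently numbered samples correlated between -0.22 and 0.25 (median -0.003 over 165 pairs). Correlations over 0.1 were found in 7 of the same-numbered and 4 of the differently numbered pairs. Whether the numbers pair the samples is thus not settled, and the main fit does not pair them.

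Signal over background limits Il1a, Il1f9 and Il1b most, since their lowest group means lie at low signal, where folds are least certain.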
